A study of Mus musculus with 280 samples.

Results

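Nuclear pore and nuclear transport genes were followed through preimplantation development in 280 single mouse embryos. They were taken by name, as the rows whose symbol marks a numbered nucleoporin (Nup), an importin (Kpna, Kpnb, Ipo, Tnpo), an exportin (Xpo), Ran or a numbered Ran-binding protein (Ranbp). This gave 49 genes of the 11076 in the expression table, on 16 chromosomes. Each embryo of the inbred FVB strain came from in vitro fertilization of an oocyte from a female on control diet, with sperm of a male on low protein or control diet, and grew in KSOM medium until it was frozen whole. Low protein and control sires gave 39 and 41 2-cell embryos, 40 and 42 4-cell embryos, 2 and 2 8-cell embryos, 35 and 38 morulae, 22 and 14 blastocysts, and 3 and 2 late blastocysts. The 280 embryos came from 20 sires, so that embryos of one sire are not independent, and blastocysts came from 3 low protein and 2 control sires. Mothers, strain, fertilization and medium were shared by both diets.

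Nuclear pores are the channels through the nuclear envelope, built from ring-shaped scaffolds of nucleoporins around a central channel of flexible, phenylalanine- and glycine-rich nucleoporins. Importin alpha proteins recognise the classical nuclear localization signal of a cargo and bind importin beta (Kpnb1), which carries the complex through the pore. The small GTPase Ran, loaded with GTP in the nucleus, releases import cargo there and loads export cargo onto exportins. Mouse Kpna7 is known as an importin alpha of the oocyte and early embryo, while Kpna2, its closest relative, is abundant in embryonic stem cells.

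The promoter windows of 4 members are shown because their transcripts took different courses to the 4-cell stage within pairs of close relatives: Kpna7 fell while Kpna2 passed in neither direction, and Ipo8 fell while Ipo7 rose. Each window holds bases 250 to 51 before the RefSeq transcription start on GRCm38.p6, written along the gene's own strand. It lies at chr5:145009687-145009886 (minus strand) for Kpna7, at chr11:106999576-106999775 (minus strand) for Kpna2, at chr6:148831518-148831717 (minus strand) for Ipo8 and at chr7:110018065-110018264 (plus strand) for Ipo7. Capitals mark a match on either strand to CCAAT or to the E-box CANNTG.
Kpna7: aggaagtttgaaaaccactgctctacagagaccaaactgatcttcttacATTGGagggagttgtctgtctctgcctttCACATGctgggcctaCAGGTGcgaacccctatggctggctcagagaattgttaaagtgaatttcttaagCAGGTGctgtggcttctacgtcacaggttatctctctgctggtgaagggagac
Kpna2: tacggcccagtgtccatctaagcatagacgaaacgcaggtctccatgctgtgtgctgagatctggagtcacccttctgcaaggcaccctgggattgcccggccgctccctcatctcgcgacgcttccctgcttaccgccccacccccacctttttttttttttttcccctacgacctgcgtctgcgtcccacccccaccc
Ipo8: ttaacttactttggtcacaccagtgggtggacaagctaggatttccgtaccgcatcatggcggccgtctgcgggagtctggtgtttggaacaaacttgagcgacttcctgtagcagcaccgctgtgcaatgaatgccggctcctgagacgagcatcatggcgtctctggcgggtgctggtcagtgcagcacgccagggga
Ipo7: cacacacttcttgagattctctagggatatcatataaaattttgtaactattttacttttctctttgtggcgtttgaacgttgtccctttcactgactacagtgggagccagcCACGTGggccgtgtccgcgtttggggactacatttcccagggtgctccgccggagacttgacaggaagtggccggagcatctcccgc
The Kpna7 window held 1 CCAAT match, read on the opposite strand as ATTGG, and 3 E-boxes. The Ipo7 window held 1 E-box, and the Kpna2 and Ipo8 windows held neither motif. Among 32851 promoter windows of the same length, 28.4% held CCAAT and 59% an E-box, against 39.1% and 34.8% of the 46 windows that matched 39 of the members. Single matches to TTTGAA stood in the Kpna7 and Ipo7 windows, and TATAAA stood in the Ipo7 window. TTTGAA stood in 13.6% of all windows and TATAAA in 9.14%. Neither TAATTG nor GGATTA was found in these 4 windows; they stood in 6.11% and 5.22% of all windows.

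The stage labels were checked on marker genes. Transcripts of the oocyte genes Zp3, Gdf9 and Bmp15 summed to 493 to 6174 TPM (a level scaled for transcript length and to a fixed total per embryo) in 2-cell embryos and to 14.6 to 317 TPM in 4-cell embryos. Trophectoderm genes (Cdx2, Gata3, Krt8, Krt18, Eomes), which mark the outer cells of the blastocyst, summed to 48.9 to 2049 TPM in morulae and to 3068 to 20890 TPM in the blastocysts of plates 2 and 3. On plate 6, which held 5 low protein and no control blastocysts, the same genes summed to 459 to 1507 TPM, within the range of the morulae. These 5 libraries went against their stage label and are named where a result rests on them. The 15 members Ipo5, Ipo7, Ipo9, Ipo13, Kpna1, Kpna3, Nup107, Nup155, Nup160, Tnpo1, Tnpo3, Xpo1, Xpo4, Xpo5 and Xpo7 had a mean log2(TPM + 1) on plate 4 at least 1 unit under that of the other plates at each of the 3 stages it holds. These are 30.6% of the members, against 7.95% of all genes. Plate was therefore a term of every fit. Of 8 cumulus cell markers and 4 sperm markers, 1 each (Cyp19a1 and Prm2) was in the table, with at most 22.5 and 31.3 TPM in a 2-cell embryo.

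The make-up of the importin alpha genes changed between the 2-cell and the 4-cell stage. Kpna7, second to Kpna2 among them at the 2-cell stage, was near or at 0 TPM in 4-cell embryos. Its lowest, median and highest TPM were 0, 0.38 and 25.7 in 4-cell embryos of low protein sires, against 115.6, 592 and 1002 in their 2-cell embryos. With control sires they were 0, 1.21 and 16.5 in 4-cell embryos, against 6.31, 518 and 887 in 2-cell embryos. The stages did not overlap with low protein sires and overlapped in their tails with control sires. Kpna7 was listed at 0 in 20 of 40 low protein and 18 of 42 control 4-cell embryos, and in 22 of 22 low protein and 11 of 14 control blastocysts. On the log2(TPM + 1) scale it fell by 7.73 (SE 0.19) in low protein and by 7.43 (SE 0.22) in control embryos (limma, adjusted p = 5.9e-76 and 2.0e-65). Within the 6 plates that held both stages, the difference ran from -8.29 to -7.06 in low protein and from -8.29 to -6.44 in control embryos.

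Kpna3, of a second importin alpha subfamily, fell as clearly. It had 0, 24.2 and 61.3 TPM (lowest, median, highest) in low protein 4-cell embryos, against 98.6, 412 and 557 TPM in low protein 2-cell embryos. Control embryos had 4.09, 26.6 and 44.7 TPM at the 4-cell stage, against 52.9, 315 and 696 TPM at the 2-cell stage. Neither diet's groups overlapped, and Kpna3 fell by 4.15 (SE 0.14) in low protein and 3.85 (SE 0.15) in control embryos on the log2 scale (limma, adjusted p = 1.8e-59 and 1.2e-53). On plate 4 the 22 2-cell embryos averaged 151 TPM, against plate means of 305 to 540 TPM elsewhere. From the 4-cell stage on Kpna3 stayed level, with group means of 24.9 to 27.1 TPM at the 4-cell, morula and blastocyst stages.

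Kpna4, the closest relative of Kpna3, went the other way. Its median was 12.4 TPM in low protein 4-cell embryos, against 0.59 TPM at the 2-cell stage, and 10.8 TPM in control 4-cell embryos, against 0.72 TPM at the 2-cell stage. It rose by 2.82 (SE 0.20) with low protein and 2.45 (SE 0.19) with control sires (limma, adjusted p = 2.5e-28 and 2.8e-24), and the ranges of the stages overlapped. Kpna1, of the third subfamily, rose by 1.75 (SE 0.22) and 1.33 (SE 0.21) with low protein and control sires (limma, adjusted p = 2.6e-12 and 5.1e-09). Its means were 167 ± 74.1 and 162 ± 58.9 TPM in low protein and control 4-cell embryos (SD, n = 40 and 42), against 48.8 ± 50.7 and 67.9 ± 69.6 TPM in 2-cell embryos (n = 39 and 41). Among 2-cell embryos, the 7 of plate 3 averaged 189 TPM of Kpna1 and the plates other than 3 averaged 31.3 to 54 TPM. In 4-cell embryos plate 3 averaged 177.5 TPM and plate 4 37.5 TPM, so that Kpna1 rose little or not at all there. Plates 1, 2, 5 and 6 averaged 160 to 249 TPM at the 4-cell stage. For Kpna6, a relative of Kpna1, the step was 0.23 (SE 0.21) and 0.12 (SE 0.16) with low protein and control sires and did not pass.

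Kpna2 was the most abundant importin alpha throughout. Its lowest, median and highest TPM at the 2-cell stage were 199.8, 1255 and 2911 in low protein and 173, 1381 and 2533 in control embryos. At the 4-cell stage they were 115, 1849 and 2583 with low protein and 1069, 1843 and 3086 with control sires. The step of 0.47 (SE 0.19) and 0.39 (SE 0.13) stayed under the fold required, and the stages overlapped. Means were lower at the later stages, at 1118 ± 528 and 889 ± 447 TPM in low protein and control morulae (SD, n = 35 and 38) and 704 ± 407 and 809 ± 189.7 TPM in blastocysts (n = 22 and 14). The step from 4-cell embryo to morula passed with control sires (-1.17, SE 0.14, limma, adjusted p = 2.1e-13) and stayed under the fold required with low protein sires (-0.68, SE 0.20). The difference between these steps was not called (0.53, limma, adjusted p = 0.417). In the 5 plate 6 blastocysts Kpna2 averaged 159 TPM, against 812 TPM on plate 2 and 956 TPM on plate 3. Morulae of plate 6 were lower too, averaging 568 TPM of Kpna2, against 870 to 1455 TPM on the other plates. A caution applies to its values, since 62.6% of the 50-base words of its transcripts in GENCODE also occur in other genes, and 61.6% of all its words occur in Gm10184.

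**Figure D1:**
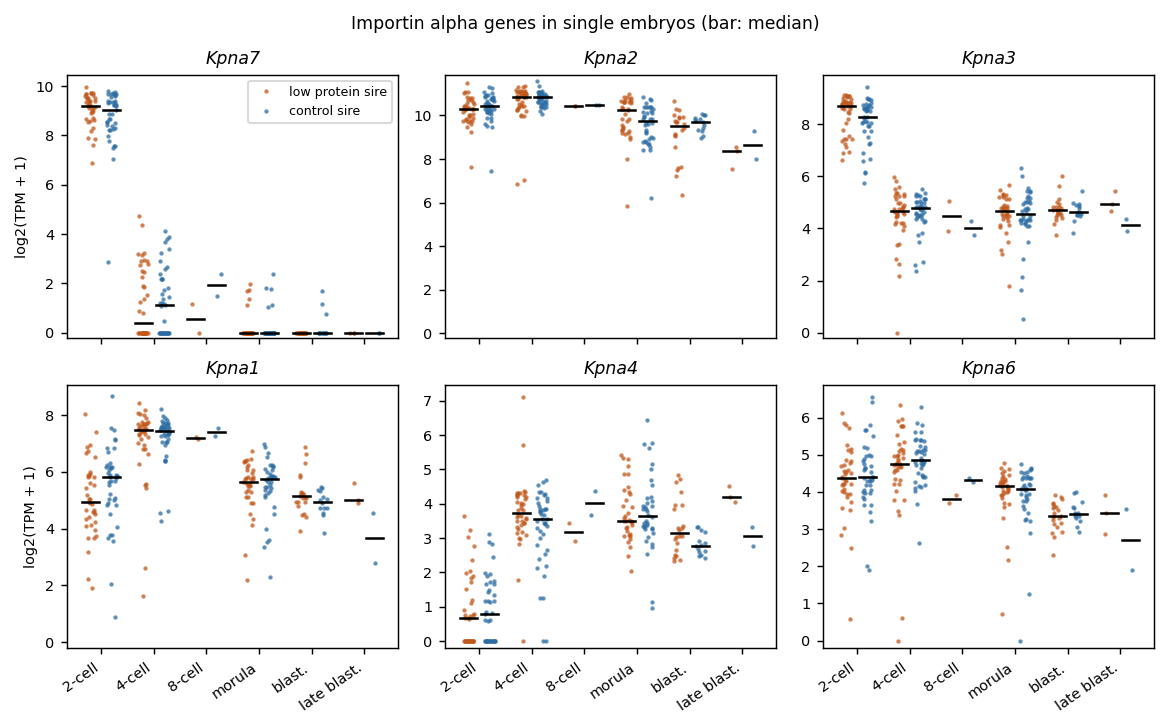
Levels of the 6 importin alpha genes in single embryos, as log2(TPM + 1), by stage; each point is 1 embryo, low protein sires stand left of control sires, and bars are medians. Kpna7 and Kpna3 drop between the 2-cell and the 4-cell stage, Kpna4 and Kpna1 climb, and Kpna2 is the highest at every stage but is lower in late than in early embryos.

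Set against each other within an embryo, the 6 genes changed from a mixed to a Kpna2-dominated make-up. At the 2-cell stage Kpna7 held 25.3% and 21.2% of the summed importin alpha TPM in low protein and control embryos, Kpna2 55 ± 11.68% and 60.3 ± 10.4% (SD, n = 39 and 41), and Kpna3 16.6% and 13.8%. At the 4-cell stage Kpna2 held 86.9 ± 5.90% and 88.5 ± 3.95% (n = 40 and 42), and Kpna1 followed with 8.64% and 8.09%. The sum itself changed less, at 1957 ± 585 and 2039 ± 410 TPM in low protein and control 4-cell embryos (n = 40 and 42), against 2312 ± 584 and 2362 ± 626 TPM in 2-cell embryos (n = 39 and 41). It was lower later, at 1225 and 999.8 TPM in morulae and 793 and 882 TPM in blastocysts. Kpna7 exceeded Kpna2 in 2 of 39 low protein and 0 of 41 control 2-cell embryos, and in 0 embryos at every later stage.

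In blastocysts the make-up depended on plate 6. Kpna2 held 82.6 ± 18.2% of the sum in low protein and 91.4 ± 2.94% in control blastocysts (SD, n = 22 and 14). Without the 5 plate 6 libraries the low protein share was 91.8 ± 2.46% (n = 17), and in these 5 it ran from 36.4% to 65.5%. Kpna1 held 26.3% in the 5 plate 6 blastocysts and 3.48% in the other low protein blastocysts, against 3.62% with control sires. These shares carry no test.

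**Figure D2:**
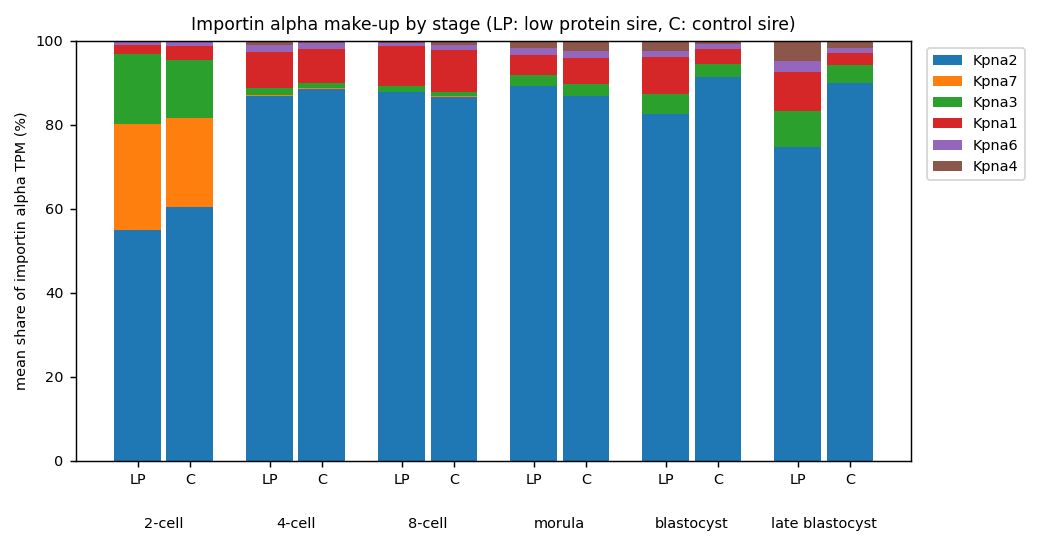
Mean share of each importin alpha gene in the summed importin alpha TPM, in percent, by stage for low protein (LP, left) and control (C, right) sires; bars stack to 100%. Kpna7 and Kpna3 take a visible part of the 2-cell bars, and Kpna2 takes more than 70% of each bar from the 4-cell stage on.

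Across all members, the 4-cell stage was the high point. The mean over embryos was highest at the 4-cell stage for 27 members with low protein and 28 with control sires, which is 55.1% and 57.1%, against 29.8% and 29.6% of all genes (8-cell embryos and late blastocysts left aside). For 20 and 18 members (40.8% and 36.7%) it was highest at the 2-cell stage, near the 42.6% and 42.5% of all genes. It was highest in morulae for 2 and 3 members (4.08% and 6.12%), against 12.5% and 12.7% of all genes. In blastocysts it was highest for 0 members, where 15.1% and 15.2% of all genes had their highest mean. The stage was the same with both diets for 46 members, a count that is not given for all genes.

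Stage steps were tested by limma on log2(TPM + 1) in each diet separately and called at a Benjamini-Hochberg adjusted p under 0.05 with a change of at least 1 log2 unit. Between the 2-cell and 4-cell stage 21 of 49 members rose in low protein embryos, where 34.5% of all genes rose, and 21 rose in control embryos, where 34.4% of all genes did. Members that fell numbered 11 with each diet, beside 37.6% of all genes with low protein and 36.9% with control sires. The median change of the members was 0.55 and 0.58 with low protein and control sires, beside -0.06 and -0.01 over all genes. With both diets 20 of the members rose and 10 fell. The share of all genes called with both diets is not given, so these counts do not compare members with other genes. Of the other calls, Kpnb1 (rose) and Nup188 (fell) passed with low protein sires, Xpo4 (rose) and Nup62cl (fell) with control sires.

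Between 4-cell embryos and morulae 0 members rose with either diet, where 11.5% and 9.93% of all genes rose with low protein and control sires. The members that fell numbered 22 and 21, beside 23.7% and 26.4% of all genes, with medians of -0.94 and -0.83 against -0.25 and -0.33 for all genes. From morula to blastocyst 0 rose again, beside 5% and 7.42% of all genes, and 11 and 12 fell, beside 19.1% and 16.9%. The medians of that step were -0.65 and -0.54 for the members and -0.33 and -0.24 for all genes. These later counts depend on scaling: when embryos were brought to one distribution (quantile normalization) 10 and 9 members fell to the morula and 3 and 6 to the blastocyst. The share of all genes that fell under that scaling is not given, so these counts do not compare members with other genes. That scaling also brought the share of rises among all called genes to 50% and 50.2% at the morula step, from the same tests that gave 32.6% and 27.3% on the deposited scale. For the blastocyst step these shares were 50% and 49.7% after quantile normalization and 20.8% and 30.4% before. Without plate 4 the members that fell to the morula numbered 24 and 22, and without plate 6 10 members fell to the blastocyst with low protein sires. With control sires 14 fell to the morula without plate 1 and 7 to the blastocyst without plate 2. In whole-embryo libraries of fixed total, fewer cells of a type and less RNA per cell cannot be told apart.

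**Figure D3:**
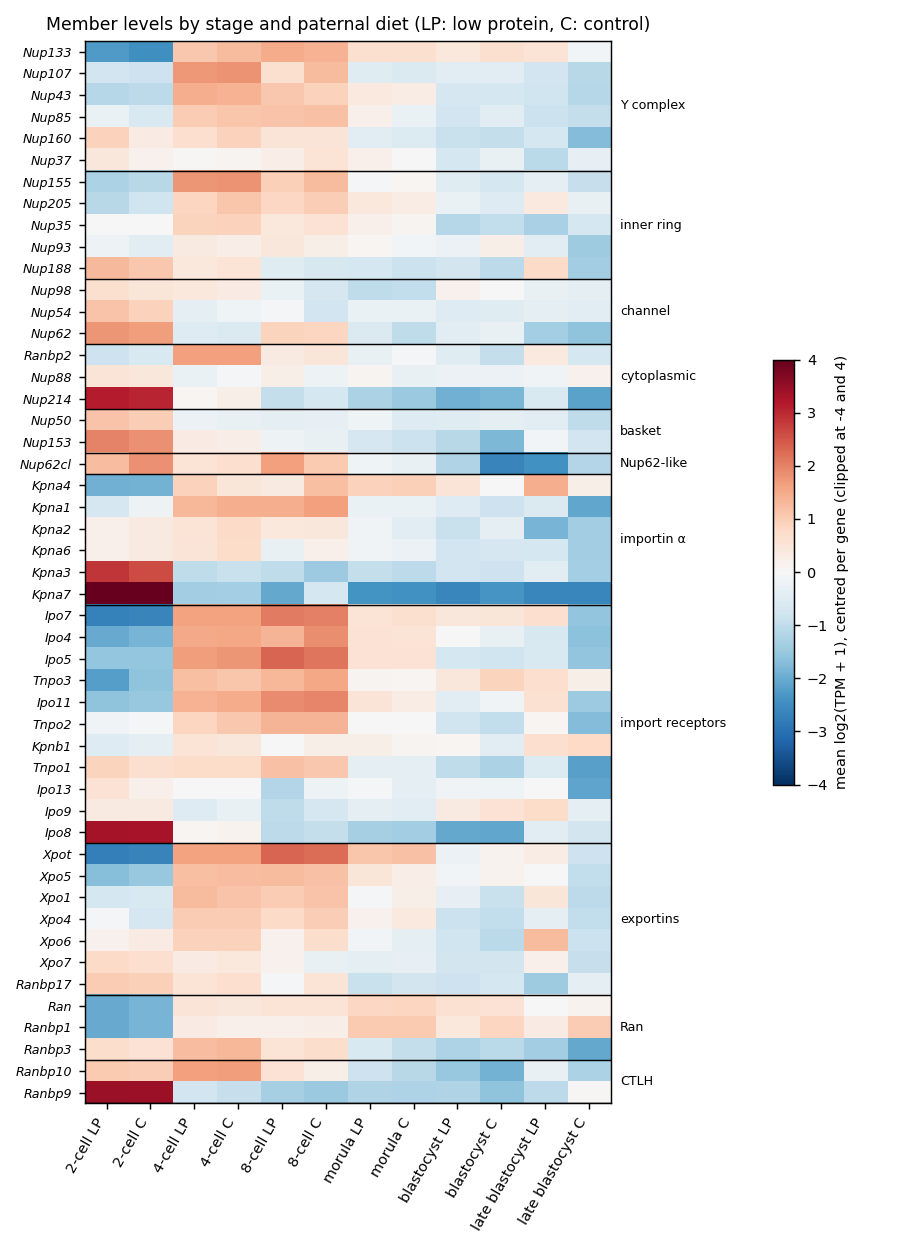
Mean log2(TPM + 1) of the 49 members by stage and paternal diet (LP low protein, C control), centred on each gene's mean over 2-cell, 4-cell, morula and blastocyst groups and grouped by role; colours are clipped at -4 and 4, which Kpna7 exceeds. Most import receptors and exportins and 4 of the 6 Y complex members (not Nup37 and Nup160) are higher at the 4-cell than at the 2-cell stage, while Kpna7, Kpna3, Ipo8, Nup214, Ranbp9 and Nup62 are highest at the 2-cell stage.

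Of the 11 import receptors of the importin beta family, 6 rose and 2 fell with low protein sires and 5 rose and 2 fell with control sires between the 2-cell and 4-cell stage, beside 34.5% and 34.4% of all genes that rose and 37.6% and 36.9% that fell. The members that rose with both diets were Ipo4, Ipo5, Ipo7, Ipo11 and Tnpo3, of which Ipo4, Ipo5 and Ipo7 are known to carry histones or ribosomal proteins and Tnpo3 splicing factors. On plate 3 alone Tnpo3 differed little, with means of 161.5 TPM in 4-cell and 141 TPM in 2-cell embryos. Ipo7 had 6.09, 273 and 576 TPM (lowest, median, highest) in low protein 4-cell embryos, against 0, 9.47 and 60.8 TPM in low protein 2-cell embryos. Control embryos had 13.8, 256 and 429 TPM of Ipo7 at the 4-cell stage, against 0, 9.88 and 134 TPM at the 2-cell stage. The upper and lower tails of the stages overlapped, and Ipo7 rose by 4.00 (SE 0.23) with low protein and 3.76 (SE 0.23) with control sires (limma, adjusted p = 1.0e-34 and 7.0e-34).

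Ipo4 rose by 3.36 (SE 0.185) and 3.10 (SE 0.20) with low protein and control sires at this step (limma, adjusted p = 3.3e-37 and 2.1e-31). Ipo11 rose by 2.86 (SE 0.23) and 2.745 (SE 0.21) with low protein and control sires at this step (limma, adjusted p = 4.7e-24 and 3.1e-25). Ipo5 rose by 3.05 (SE 0.16) and 2.88 (SE 0.14) with low protein and control sires (limma, adjusted p = 4.3e-38 and 3.4e-42). Its means were 429 ± 168 and 445 ± 158 TPM at the 4-cell stage (SD, n = 40 and 42), against 49.1 ± 29.6 and 50.9 ± 33.2 TPM at the 2-cell stage (n = 39 and 41). It was the member with the largest fall to the blastocyst among import receptors, to 73.5 ± 19.4 and 68.3 ± 18.7 TPM in low protein and control blastocysts (n = 22 and 14), against 213 ± 109 and 211 ± 104 TPM in morulae (n = 35 and 38). That step was -1.65 (SE 0.23) and -2.04 (SE 0.23), or -1.33 and -1.80 relative to the median gene (limma, adjusted p = 6.1e-10 and 6.2e-13). Ipo4 and Tnpo2 fell at this step with both diets too, Ipo11 with low protein sires and Tnpo1, a receptor of RNA-binding proteins, with control sires. About 51.6% of the 50-base words of Ipo4 also occur in Gm49378, so that its level is uncertain.

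Ipo8, the closest relative of Ipo7, went the opposite way. It had 0, 10.47 and 46.7 TPM (lowest, median, highest) in low protein 4-cell embryos, against 43.8, 111 and 223 TPM in low protein 2-cell embryos. In control embryos it had 4.04, 10.52 and 37.97 TPM at the 4-cell stage, against 41.2, 106 and 310 TPM at the 2-cell stage. The 2 stages did not overlap with control sires and met in the tails with low protein sires. The fall was 3.51 (SE 0.16) and 3.39 (SE 0.15) log2 units with low protein and control sires (limma, adjusted p = 2.4e-46 and 4.3e-47), and Ipo8 fell again to the morula, by 1.36 (SE 0.17) and 1.54 (SE 0.16). Ipo8 was above Ipo7 in 39 of 39 low protein and 40 of 41 control 2-cell embryos, and in 0 of 40 and 0 of 42 4-cell embryos. Ipo9, which is known to carry histones, fell by 1.09 (SE 0.18) and 1.04 (SE 0.18) with low protein and control sires.

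Kpnb1, the partner of importin alpha, moved less and was far less abundant than Kpna2. Its means were 44.3 ± 14.3 and 41.01 ± 15.7 TPM in low protein and control 4-cell embryos (SD, n = 40 and 42), against 20.5 ± 7.49 and 23.1 ± 11.4 TPM in 2-cell embryos (n = 39 and 41). It rose by 1.12 (SE 0.13) with low protein sires (limma, adjusted p = 2.9e-14), and the step of 0.81 (SE 0.13) with control sires stayed under the fold required. The 5 plate 6 blastocysts averaged 72.7 TPM of Kpnb1, against 22.5 TPM on plate 2 and 19.2 TPM on plate 3. Morulae of plates 6 and 7 were high too, averaging 64.05 and 57.2 TPM of Kpnb1, against 25.5 to 31.3 TPM on plates 1 to 4.

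Among the 7 exportins, 3 rose and 0 fell with low protein and 4 rose and 0 fell with control sires to the 4-cell stage, where 34.5% and 34.4% of all genes rose and 37.6% and 36.9% fell. Xpot, the exporter of transfer RNA, had the largest rise of all members. It had 4.16, 57.8 and 107.5 TPM (lowest, median, highest) in low protein 4-cell embryos, against 0, 1.03 and 18.1 TPM in low protein 2-cell embryos. In control embryos it had 7.74, 58.4 and 92 TPM at the 4-cell stage, against 0, 0.76 and 17.1 TPM at the 2-cell stage. The stages overlapped in their tails, and the rise was 4.26 (SE 0.18) and 3.99 (SE 0.19) with low protein and control sires (limma, adjusted p = 5.1e-48 and 1.6e-42). Its mean was 40.03 and 42 TPM in low protein and control morulae, and it fell in blastocysts to 14.5 ± 7.08 and 17.7 ± 5.26 TPM (SD, n = 22 and 14; -2.17 and -1.82, limma, adjusted p = 6.8e-13 and 1.3e-06).

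Xpo1, the main exporter of proteins with a leucine-rich export signal, rose by 1.76 (SE 0.21) and 1.49 (SE 0.18) with low protein and control sires to the 4-cell stage (limma, adjusted p = 1.7e-13 and 3.2e-13). Median levels of Xpo1 were 24.8, 105, 44.4 and 25.9 TPM at the 2-cell, 4-cell, morula and blastocyst stages with low protein sires. With control sires they were 24.4, 95.6, 39.1 and 24.2 TPM, so that both courses peaked at the 4-cell stage. The fall to the morula passed with both diets (-1.69 and -1.12, limma, adjusted p = 5.5e-11 and 1.4e-07), and that to the blastocyst with control sires (-1.20, adjusted p = 0.00076) but not with low protein sires (-0.48, adjusted p = 0.19). The 5 plate 6 blastocysts, all low protein, averaged 90.5 TPM of Xpo1, against 22.9 TPM on plate 2 and 26.1 TPM on plate 3. Morulae of plates 6 and 7 averaged 102.7 and 138 TPM of Xpo1, against 28.99 to 58.1 TPM on plates 1 to 4. Without plate 6 the low protein step was -0.67 (adjusted p = 0.123), and without plate 2 the control step of -1.27 did not pass (adjusted p = 0.112). The difference between these steps was not called (0.61, limma, adjusted p = 1.0). Xpo5, the exporter of microRNA precursors, rose by 2.60 (SE 0.18) and 2.25 (SE 0.21) with low protein and control sires. Xpo4, which exports the translation factor eIF5A, was the exportin beside Xpot that fell to the blastocyst with both diets (-1.42 and -1.92, limma, adjusted p = 2.2e-05 and 1.8e-06).

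Ran itself rose to the 4-cell stage and then stayed high. It had 349.5, 802 and 1735 TPM (lowest, median, highest) in low protein 4-cell embryos, against 62.99, 117 and 329 TPM in low protein 2-cell embryos. With control sires it had 353, 802 and 1331 TPM at the 4-cell stage, against 55.7, 166 and 823 TPM at the 2-cell stage. The low protein groups did not overlap, and at least 1 control 2-cell embryo reached into the 4-cell range. Ran rose by 2.63 (SE 0.09) and 2.51 (SE 0.11) with low protein and control sires (limma, adjusted p = 1.6e-56 and 4.0e-46), and its median was 1031 and 1099 TPM in morulae and 849.7 and 833 TPM in blastocysts. Neither later step of Ran reached 1 log2 unit.

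Ranbp1, a cofactor of Ran GTP hydrolysis, rose by 2.35 (SE 0.14) and 2.28 (SE 0.13), and its steps to the morula of 0.91 and 0.72 stayed just under the fold required with low protein and control sires. Relative to the median gene these steps were 1.16 and 1.05, the highest of the members. Ranbp3, a cofactor of Xpo1, fell to the morula by 1.89 (SE 0.17) and 2.15 (SE 0.16) with low protein and control sires (limma, adjusted p = 9.5e-19 and 1.5e-25). Its means were 67.6 ± 21.5 and 57.3 ± 24.6 TPM in low protein and control morulae (SD, n = 35 and 38), against 271 ± 117 and 257 ± 68 TPM in 4-cell embryos (n = 40 and 42).

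Ranbp9 and Ranbp10 share the Ran-binding name but are known as subunits of a ubiquitin ligase complex. Ranbp9 fell to 8.44 and 7.31 TPM on average in low protein and control 4-cell embryos, against 143 and 143 TPM in 2-cell embryos, and the groups did not overlap with either diet. That step was -4.21 (SE 0.20) and -4.40 (SE 0.20), limma adjusted p = 1.9e-44 and 1.8e-46. Ranbp10 fell one step later, with medians of 3.56 and 3.09 TPM in low protein and control morulae, against 21.4 and 22.3 TPM in 4-cell embryos. This was the largest fall of a member to the morula, at -2.37 (SE 0.16) and -2.51 (SE 0.17), or -2.12 and -2.18 relative to the median gene (limma, adjusted p = 5.9e-29 and 4.7e-29).

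**Figure D4:**
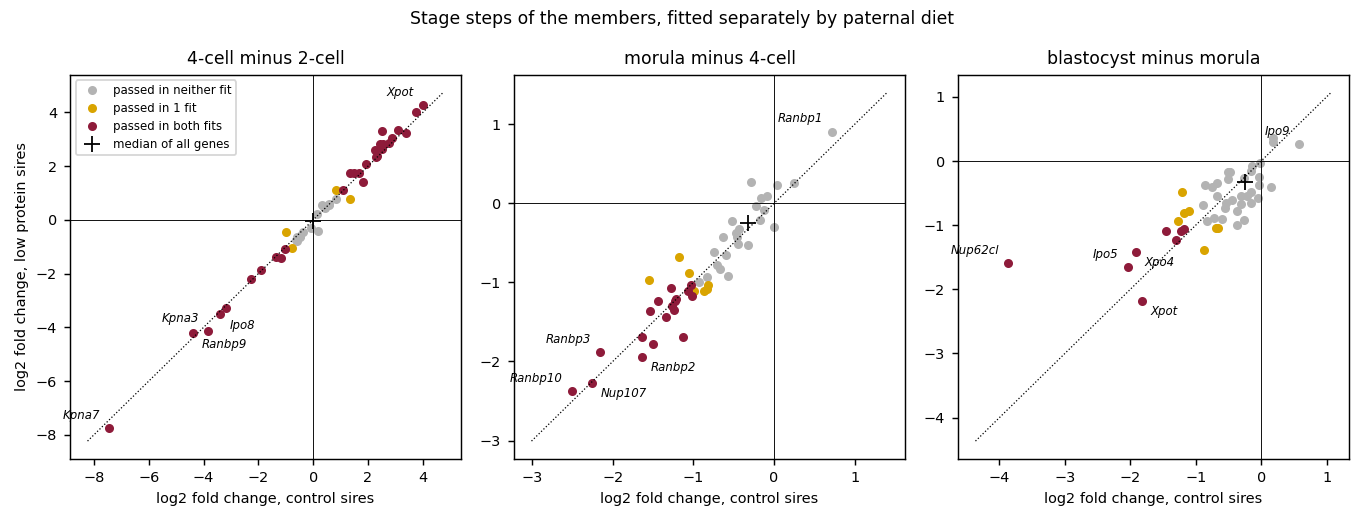
Log2 fold changes of the 49 members for each stage step, fitted in low protein embryos (vertical axis) and in control embryos (horizontal axis); colours give the number of fits in which the member passed, the cross marks the median of all genes and the dotted line equality. The members lie along the line in the first panel, from Kpna7 to Xpot, and mostly below 0 in the other panels.

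The subunits of the pore did not move as one. The naming rule took 6 genes of the Y complex, the scaffold of the outer rings. Of these, 4 rose and 0 fell to the 4-cell stage with each diet, namely Nup43, Nup85, Nup107 and Nup133. Beside them, 34.5% and 34.4% of all genes rose with low protein and control sires, and 37.6% and 36.9% fell. Nup133 had a median of 39.2 TPM in low protein 4-cell embryos, against 2.42 TPM at the 2-cell stage, and 41.5 TPM in control 4-cell embryos, against 2.05 TPM at the 2-cell stage. It rose by 3.22 (SE 0.20) and 3.38 (SE 0.19) with low protein and control sires (limma, adjusted p = 6.7e-32 and 7.9e-36). Nup37 and Nup160 did not pass, with steps of -0.31 and -0.41 in low protein and -0.07 and 0.16 in control embryos. Among these 6 members at the 2-cell stage, the most abundant, Nup37, was 57.3-fold and 57.9-fold above the least, Nup133, in low protein and control embryos. Among the same 6 at the 4-cell stage, the ratio of the highest, Nup43, to the lowest, Nup160, was 14.3 and 12.4. Sec13 and Seh1l, Y complex genes that the naming rule misses, are not in these counts and ratios. On plate 3, Sec13 averaged 213.7 TPM in 2-cell and 240.7 TPM in 4-cell embryos. Seh1l averaged 98.65 and 163.4 TPM there, and Nup37 68.28 and 128.3 TPM.

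Nup43 rose to 399 ± 142 and 375 ± 103 TPM in low protein and control 4-cell embryos (SD, n = 40 and 42), against 72.9 ± 45.1 and 84.4 ± 62.8 TPM in 2-cell embryos (n = 39 and 41). Nup107 rose by 2.37 (SE 0.19) and 2.33 (SE 0.17) with low protein and control sires and fell by nearly as much to the morula, by 2.27 (SE 0.20) and 2.26 (SE 0.18). Its median was thus 23.6, 136, 29.8 and 25.9 TPM at the 2-cell, 4-cell, morula and blastocyst stages with low protein sires, and 20.2, 134, 26.9 and 25.6 TPM with control sires. On plate 4 Nup107 was lower than on other plates by 1.51, 1.68 and 2.01 log2 units at the 2-cell, 4-cell and morula stages.

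In the inner ring, which anchors the pore in the membrane, Nup155, Nup205 and Nup35 rose with both diets, and Nup188 fell with low protein sires alone. Nup155 had medians of 38.1 and 41.6 TPM in low protein and control 4-cell embryos, against 3 and 3.19 TPM in 2-cell embryos. It rose by 2.83 (SE 0.17) and 2.55 (SE 0.18) and fell to the morula by 1.78 (SE 0.18) and 1.5 (SE 0.19) with low protein and control sires. Nup35 fell to the blastocyst with both diets, to 49.8 ± 13.5 and 56.1 ± 19.3 TPM (SD, n = 22 and 14), against 129 ± 38.3 and 128 ± 58.98 TPM in morulae (n = 35 and 38; limma, adjusted p = 1.3e-07 and 2.3e-07). Of its 50-base words 39.2% occur in other genes, so its level is uncertain. The step of Nup93, which links the ring to the channel, was 0.58 and 0.59 with low protein and control sires at the 4-cell stage and did not reach the fold required.

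Among the members, the channel, the cytoplasmic face and the nuclear basket held all 5 nucleoporins that fell with both diets to the 4-cell stage. Nucleoporins that the naming rule misses are not in this count. In the channel Nup62 and Nup54 fell with both diets and 0 of 3 rose. Over all genes, 37.6% and 36.9% fell at this step with low protein and control sires, and 34.5% and 34.4% rose. Nup62, the core channel nucleoporin, had 0.89, 107 and 311 TPM (lowest, median, highest) in low protein 4-cell embryos, against 113, 522 and 861 TPM in low protein 2-cell embryos. Control embryos had 15.8, 94.7 and 325 TPM at the 4-cell stage, against 157, 464 and 885 TPM at the 2-cell stage. The stages overlapped in part, and Nup62 fell by 2.21 (SE 0.18) and 2.27 (SE 0.19) with low protein and control sires (limma, adjusted p = 1.1e-23 and 2.8e-23).

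On the cytoplasmic face Nup214, to which exporting complexes dock, fell to 27.9 ± 14.2 and 30.5 ± 14.1 TPM in low protein and control 4-cell embryos (SD, n = 40 and 42), against 259 ± 130 and 232 ± 114 TPM in 2-cell embryos (n = 39 and 41). The fall was 3.28 (SE 0.15) and 3.18 (SE 0.14) log2 units (limma, adjusted p = 1.0e-46 and 1.5e-47), followed by 1.24 and 1.44 more to the morula. Ranbp2, the large SUMO ligase of the same face, went the other way: it rose by 2.07 (SE 0.19) and 1.91 (SE 0.20) to the 4-cell stage and fell by 1.94 (SE 0.20) and 1.64 (SE 0.21) to the morula with low protein and control sires. Ranbp2 medians at the 2-cell, 4-cell, morula and blastocyst stages were 4.89, 35.1, 7.14 and 5.41 TPM with low protein sires and 7.10, 37.2, 8.34 and 4.66 TPM with control sires. Nup153 and Nup50, the basket genes taken by name, fell at the 4-cell stage. Nup153 fell by 1.85 (SE 0.18) and 1.91 (SE 0.15) and Nup50 by 1.39 (SE 0.11) and 1.37 (SE 0.15). Tpr, a basket gene that the naming rule misses, did not fall on plate 3. It averaged 78.17 TPM in 2-cell and 108.5 TPM in 4-cell embryos there.

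Further pathway genes that the naming rule misses moved in both directions too. Of a list of 21, 9 rose and 3 fell to the 4-cell stage with each diet, beside 34.5% and 34.4% of all genes that rose and 37.6% and 36.9% that fell, with medians of 0.73 and 0.84 for low protein and control sires. Rcc1, which loads Ran with GTP on chromatin, rose to 338 ± 163 and 342 ± 125 TPM in low protein and control 4-cell embryos (SD, n = 40 and 42), against 55.1 ± 21.3 and 55.8 ± 31.9 TPM in 2-cell embryos (n = 39 and 41). Rangap1, which makes Ran hydrolyse GTP, rose by 3.25 (SE 0.19) and 3.15 (SE 0.23). Cse1l, which returns importin alpha to the cytoplasm, rose by 1.78 (SE 0.22) and 1.81 (SE 0.19).

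The carriers of small nuclear RNA in the list rose as well: Snupn by 3.01 (SE 0.17) and 2.85 (SE 0.20) and Phax by 3.28 (SE 0.17) and 3.58 (SE 0.20) with low protein and control sires. Snupn fell again to the morula by 3.38 (SE 0.18) and 3.76 (SE 0.21), to 50.8 and 45.96 TPM on average in low protein and control morulae, against 427 and 428 TPM in 4-cell embryos. Nupl1, the older symbol of the channel nucleoporin Nup58, fell at the 4-cell stage by 3.02 (SE 0.20) and 2.61 (SE 0.24), in the same direction as its channel partners Nup62 and Nup54. To the morula 0 of the 21 rose and 9 and 8 fell with low protein and control sires, beside falls of 23.7% and 26.4% of all genes. To the blastocyst 0 rose and 3 and 5 fell, beside 19.1% and 16.9% of all genes.

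The 4 8-cell embryos were all from plate 3 and are given as values beside the 4-cell embryos and morulae of that plate. The 8-cell mean on the log2 scale lay between the other 2 stages for 27 members (55.1%, against 54.1% of all genes), above both for 13 and below both for 9. It was nearer to the 4-cell mean for 37 of the 49, where 59.6% of all genes were. Nup62 lay above both, with 307 and 203 TPM in the low protein and 212 and 275 TPM in the control 8-cell embryos. On plate 3 it ran from 73.4 to 229.6 TPM in 8 4-cell embryos and from 70.2 to 180.2 TPM in 8 morulae, so that some of its 8-cell values lay above both stages. Kpna7 had 1.23 and 0 TPM in the low protein and 4.19 and 1.81 TPM in the control 8-cell embryos. Ipo5 had 548 and 620 TPM in the low protein and 543 and 476 TPM in the control 8-cell embryos, as high as in 4-cell embryos.

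Late blastocysts came from plate 7, which held no other blastocysts but 4 4-cell embryos and 4 morulae, and the differences given here are not adjusted for plate. Against the other blastocysts, 2 members were at least 1 log2 unit higher, beside 16.9% of all genes, and 1 was at least 1 lower, beside 2.98% of all genes. Ipo8 was higher by 1.48, with 3.74, 9.30 and 9.61 TPM in the low protein and 5.12 and 5.93 TPM in the control late blastocysts, against 0.24 to 10.69 TPM in low protein and 0 to 5.89 TPM in control blastocysts. The 5 plate 6 blastocysts, at 2 to 10.69 TPM of Ipo8, covered all the late values. Morulae of plate 7 averaged 6.81 TPM of Ipo8, against 2.57 to 3.59 TPM on plates 1 to 4 and 10 TPM on plate 6. Xpo6, the exporter of actin, was higher by 1.32, with 39.7, 24.03 and 50.2 TPM in the low protein and 3.10 and 17 TPM in the control late blastocysts, against 1.80 to 16.4 TPM in the other blastocysts. Nup62 was lower by 1.08, with 57.7, 40.2 and 57.03 TPM in the low protein and 36.4 and 50.7 TPM in the control late blastocysts, against 49.1 to 134 TPM in low protein and 81.2 to 146 TPM in control blastocysts. These counts changed with single embryos: 5 were higher and 0 lower without control replicate 1, 4 and 3 without low protein replicate 2, and 1 and 3 without low protein replicate 3.

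Paternal diet was compared at each stage by limma on log2(TPM + 1) with plate as a term. At the 2-cell, 4-cell, morula and blastocyst stages 0 members passed an adjusted p of 0.05, and the share of all genes that passed was 0% at each stage. At an unadjusted p under 0.05 stood 6, 1, 1 and 1 members and 717, 511, 996 and 322 genes. The 95% interval of the low protein minus control difference lay within 1 log2 unit of 0 for 46 of 49 members in 2-cell embryos, 49 of 49 in 4-cell embryos, 48 of 48 in morulae and 47 of 48 in blastocysts. Kpna7 was too low to be tested in morulae and blastocysts. Since plate is a term and plate 6 held 5 low protein and 0 control blastocysts, these 5 add nothing to the blastocyst difference, which rests on 17 low protein and 14 control embryos. The interval was within 0.5 of 0 for 23, 37, 26 and 35 of them, so that for the others larger differences than that lie inside it.

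The members nearest to a diet difference were not the same from stage to stage. At the 2-cell stage Tnpo3 had 0, 8.05 and 199 TPM (lowest, median, highest) with low protein sires, against 0, 12.8 and 238 TPM with control sires, a difference of -0.77 (95% interval -1.32 to -0.21, limma, adjusted p = 0.706). Next came Xpo4 (0.52) and Nup160 (0.48), each with an adjusted p of 0.706. At the 4-cell stage Kpna4 had 0, 12.4 and 137 TPM with low protein sires, against 0, 10.8 and 24.8 TPM with control sires, a difference of 0.48 (0.08 to 0.87, adjusted p = 0.901). In morulae Nup85 had medians of 83.7 and 70.7 TPM with low protein and control sires, a difference of 0.46 (0.06 to 0.86, adjusted p = 0.437). In blastocysts Nup62cl, an X-linked relative of Nup62, had 0, 2.61 and 18.02 TPM with low protein sires, against 0, 0 and 8.64 TPM with control sires, a difference of 1.11 (0.21 to 2.01, adjusted p = 0.9998). In all of these the ranges of the diets overlapped. The low protein levels of Nup62cl include the 5 plate 6 blastocysts, which add nothing to its difference.

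**Figure D5:**
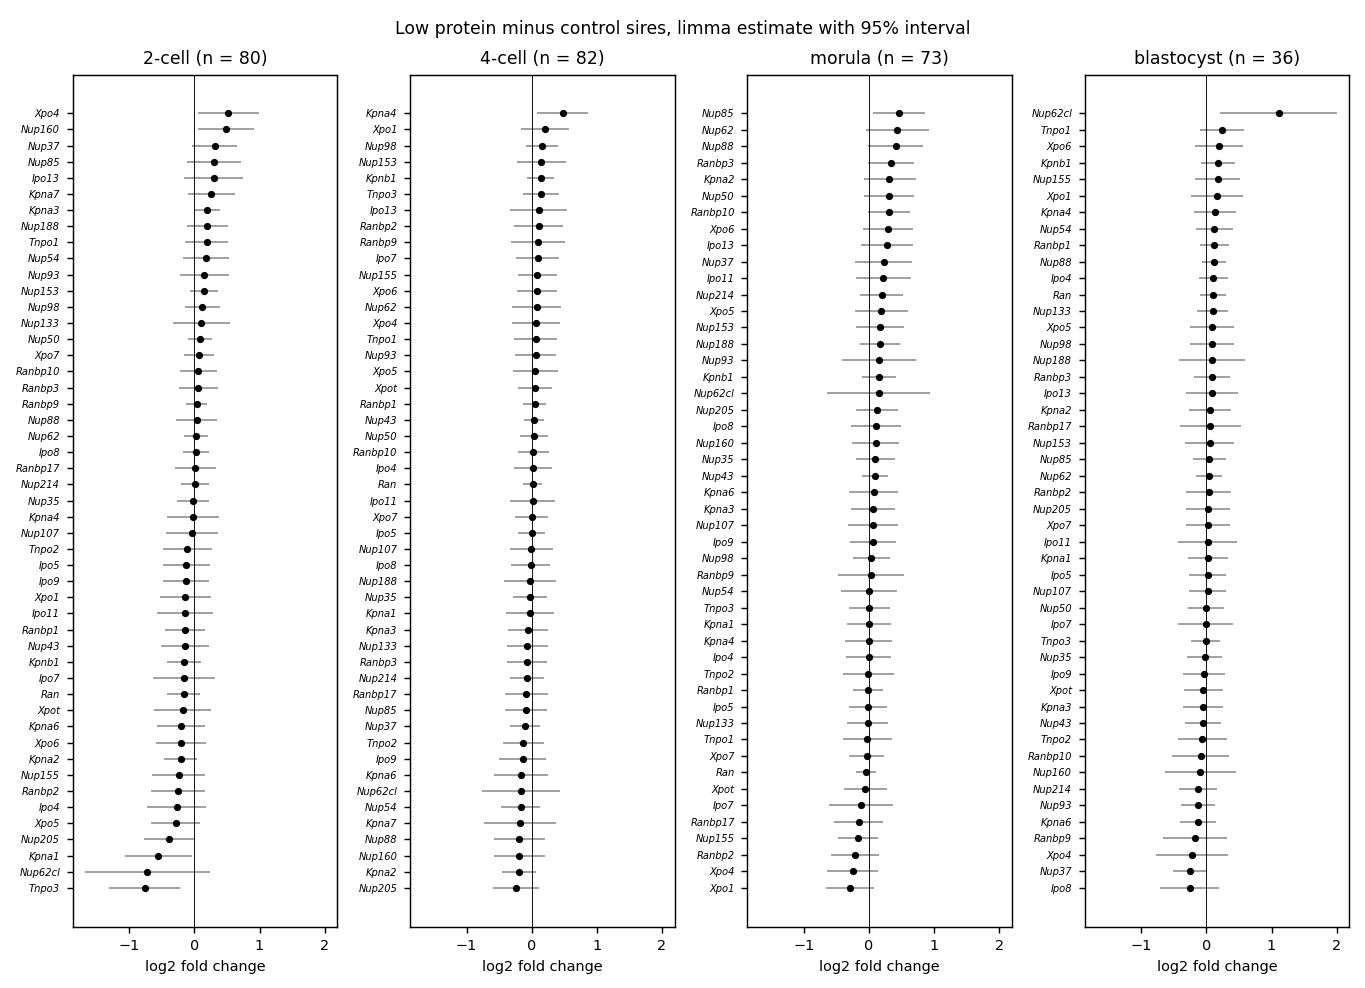
Low protein minus control difference of each member in log2(TPM + 1), with its 95% interval from limma, at the 2-cell, 4-cell, morula and blastocyst stages; members are sorted within each panel. Most points lie within 0.5 of 0, and the widest intervals belong to Nup62cl.

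For the importin alpha genes, the difference at the 2-cell stage was 0.26 for Kpna7, 0.20 for Kpna3 (0.01 to 0.39), -0.21 for Kpna2 (-0.46 to 0.04) and -0.55 for Kpna1 (-1.07 to -0.04), each with an adjusted p of at least 0.7057. Whether the stage steps themselves differed between the diets was tested in 1 fit of 271 embryos. Of all genes 0% had a step to the 4-cell stage that differed, 0.00905% one to the morula and 0% one to the blastocyst, and 0 members did. At an unadjusted p under 0.05 stood 2, 3 and 2 of the 49 members. The count of all genes at that p is not given, so these numbers do not show whether members stood out. The widest gap between diets at the first step belonged to Tnpo3, which rose by 3.31 with low protein and 2.49 with control sires (difference 0.84, limma, adjusted p = 0.594). At the step to the blastocyst it belonged to Nup62cl, which fell by 1.59 with low protein and 3.87 with control sires in the separate fits (difference 1.67 in the joint fit, where the diets share 1 set of plate terms, limma, adjusted p = 1.0). The 3 steps had the same sign with both diets for 48, 46 and 48 of the 49 members. That count over all genes is not given, so it does not set the members apart.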

How the data were processed

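Single-embryo libraries were made with a single-cell RNA-seq and Nextera kit, per the labels' protocols. The authors deposited TPM values for 280 embryos and 11076 genes, and the submitters' processing notes name Bowtie and mm10 and no version of Bowtie. No counts were used, so sequencing depth is unknown; embryos had 3626 to 10204 genes at 1 TPM or more. TPM have a fixed total, so a gene can fall because others rise. The lowest maximum of any gene was 5.87 TPM.

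The 49 members, the 21 further pathway genes and the roles were chosen with earlier results of these data known. Values were tested as log2(TPM + 1) with limma 3.58.1 in R 4.3.3 (trend and robust variances, plate as covariate, Benjamini-Hochberg adjustment over all genes tested), on genes that reached 1 TPM in 25% or more of one stage's embryos. Stage steps were fitted in each diet separately, 4-cell minus 2-cell, morula minus 4-cell and blastocyst minus morula. Fold changes on this scale understate changes of low genes. One low protein 4-cell embryo alone on plate 8 is taken up by its plate term and adds nothing to the contrasts. P-values treat embryos as independent although they share sires, so they measure the spread between these embryos; sire as a correlated block was an alternative. 8-cell embryos, late blastocysts and importin alpha shares were described without a test.

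Named genes were every importin alpha gene, Kpnb1, Ran and Xpo1, the 8 members with the largest change per direction among those called with control sires and at 20 TPM or more on average in 1 stage, and the 3 with the smallest p per diet comparison; members that show a contrast within a role, and the pathway genes printed, were chosen after their values were seen. Gene positions come from GENCODE vM21 on GRCm38, and promoters from RefSeq on GRCm38.p6; figures and descriptions used Python 3.11.15 (numpy 2.4.6, pandas 2.3.3, matplotlib 3.10.9). The fits were tested on simulated data. Alternatives were a pseudocount of 0.1, no filter, quantile and upper quartile scaling, no plate term, sire blocks, each plate left out, embryos under 5000 genes left out and, added after the data were seen, importin alpha shares without plate 6.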

Additional observations from a re-analysis of the deposited data

How the results depend on the processing

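The first step was stable: leaving out each plate gave 20 to 22 members that rose and 10 to 11 that fell with low protein sires, and 20 to 21 and 9 to 11 with control sires. The later falls were not. To the morula, 10 members fell under quantile normalization and 10 under upper quartile scaling with low protein sires, and 9 and 10 with control sires; 1 member rose with each diet under upper quartile scaling. To the blastocyst, with low protein sires 17 members fell at a pseudocount of 0.1, 3 under quantile normalization, 4 under upper quartile scaling and 5 without the plate term, where 1 rose. With control sires 6, 6 and 7 fell under the last 3 of these, and 1 rose without the plate term. The shares of all genes that fell under these alternatives are not given, so the counts do not compare members with other genes. Each plate left out gave 0 to 1 rising and 21 to 24 falling to the morula with low protein sires, 0 to 0 and 14 to 22 with control sires (14 without plate 1), and 10 to 14 and 7 to 14 falling to the blastocyst (7 without plate 2, the main blastocyst plate). Under upper quartile scaling, rises made up 53% and 49.5% of all called genes at the morula step with low protein and control sires, and 46.3% and 49.9% at the blastocyst step, where they were 35.5% and 47% without the plate term. The cause was not tested. Of 82 named member and step results, 62 kept call and direction under every alternative run and 0 reversed. A call was lost for 14 of the 82 under quantile normalization, 12 under upper quartile scaling and 7 without the plate term.

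Members called for diet or for a difference of steps stayed at 0 under every alternative; the blastocyst difference of Nup37, -0.25 and not called, ran from -0.36 to 0.19 with 1 plate left out, the last without plate 2. Members between 4-cell and morula means on plate 3 numbered 25 to 28 with 1 embryo left out, and late blastocysts gave 1 to 5 higher and 0 to 3 lower. On plate 3 alone, Kpna1 held 3.95% in low protein 2-cell embryos, and Kpna2 and Kpna7 73.1% and 8.26% in control 2-cell embryos. Depth is unknown, so levels near 0 TPM cannot be told from absence.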
